A study of Caenorhabditis elegans with 12 samples.

Results

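At day 2, 6 libraries of whole Caenorhabditis elegans were divided into a high and a low set by the transcripts of cuticle and moulting genes, and that division crossed the 2 foods. It is described here as the set of genes that vary together. The study compared N2 hermaphrodites (the wild-type strain) fed bacteria with a bcat-1 RNAi vector with N2 hermaphrodites fed bacteria with the empty vector L4440. Whole worms were sampled at an age of 2 days or 1 day, which gives bcat-1 RNAi at 2 days, L4440 at 2 days, bcat-1 RNAi at 1 day and L4440 at 1 day, with 3 libraries each and 12 in all. BCAT-1 takes the amino group off the branched-chain amino acids, the entry step of their catabolism. RNAi by feeding reaches the whole animal, and a library of whole worms holds RNA of the soma, the germline and any embryos inside the mother. The 6 day 2 libraries were assigned to the 2 sides after their cuticle transcripts had been seen in these data, and titles only identify the libraries. The high side holds bcat-1 replicate 1, L4440 replicate 1 and L4440 replicate 3, and the low side holds bcat-1 replicate 2, bcat-1 replicate 3 and L4440 replicate 2. Replicate numbers only name libraries. Because the sides were chosen by measured values, every difference between them is a description with no test.

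The cuticle of C. elegans is a collagen matrix that the epidermis secretes late in embryogenesis and again before each larval moult, and adults do not moult. Each round starts with a temporary precuticle of zona pellucida (ZP) proteins, lipocalins and leucine-rich proteins, and collagens follow in waves from the furrow collagens to the body of the cuticle. Nuclear receptors such as NHR-23 and NHR-25 drive the cycle, hedgehog-related and patched-related proteins take part in it, and proteases then free the old cuticle.

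Levels are in CPM, counts scaled to a common library size after rRNA genes were removed, with TMM factors. Differences are between the means of log2(CPM) of the sides, with a prior count of 2, and folds are on that scale, which understates changes of low genes. Libraries held 29291731 to 43855795 counts. rRNA genes took 41.5% of counts of the library labelled bcat-1 day 2 replicate 3 and 6.74% in L4440 day 2 replicate 3, against 0.0724% to 2.50% in the other 10, so 17258721 counts remain in the rRNA-rich bcat-1 library. The transcript of the RNAi target stood at 14.8, 18.2 and 348 CPM in bcat-1 libraries of day 2 (replicates 1, 2 and 3) and at 149, 164 and 124 CPM in L4440 libraries of day 2. The library labelled bcat-1 day 2 replicate 3 thus goes against its label, and most list differences between the sides are given with and without it. Values and tests of single genes, and list results by age, include it unless said otherwise. The RNAi construct itself can add reads to bcat-1. The log2 fold change of bcat-1 between the foods at day 2 was −0.21 (SE 0.87, edgeR adjusted p = 0.953), and −3.14 without that library (adjusted p = 9.871e-05). At day 1 bcat-1 stood at 20.5, 18.97 and 28.5 CPM on bcat-1 RNAi and at 191, 184 and 164.8 CPM on L4440. The labels do not say that libraries are separate cultures, so p-values measure only the spread between these samples.

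The collagens did not follow the name moult-poor in the library labelled as bcat-1 replicate 3 of day 2. A list score, the mean over members of log2(CPM) minus the gene's mean over the 12 libraries, was 0.38, 0.37 and 2.12 for named collagens other than the furrow collagens on the high side. On the low side it was −0.93, 1.76 and −0.60. The sides are therefore called here after a leading gene of the division, the cuticulin gene cut-3, as cut-3-high and cut-3-low libraries. cut-3 stood at 42, 71.9 and 25.1 CPM in the cut-3-high libraries, against 4.09, 14.1 and 3.86 CPM in the cut-3-low libraries. The gene lies on chromosome II at 8445169 to 8446831 (WBcel235). Values are given throughout in the order bcat-1 replicate 1, L4440 replicate 1 and L4440 replicate 3 for cut-3-high, and bcat-1 replicate 2, bcat-1 replicate 3 and L4440 replicate 2 for cut-3-low.

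Of 14708 genes that passed a filter on low counts, 2497 (17%) were higher in all 3 cut-3-high libraries than in any cut-3-low library, and 1299 (8.83%) were lower in all 3. At a difference of at least 2-fold, 912 genes (6.2%) were higher and 19 (0.129%) lower. The median difference of all genes was 0.07. In whole-worm libraries more cells of a type and more RNA per cell cannot be told apart. Just inside 2-fold (a log2 difference of 1) lay fln-2 at 1.0010, cec-8 at 1.0015 and rsbp-1 at 1.0036, and just outside it lay aex-3 at 0.9994, ced-11 at 0.9965 and tsp-14 at 0.9938. Without the library labelled bcat-1 day 2 replicate 3 the higher genes numbered 3875 and the lower genes 2580 of the same 14708. For these counts there were 2 cut-3-low libraries to exceed in place of 3, and the filter and scaling of all 12 libraries were kept. List counts without that library are read beside 3875 and 2580 of 14708, and list counts with it beside 17% and 8.83%. The 2 closest libraries were of different foods: bcat-1 and L4440 replicate 1 differed with an SD of 0.321 (log2) over genes and at least 2-fold in 265 genes. bcat-1 and L4440 replicate 2 differed with an SD of 0.393 and in 475 genes, whereas bcat-1 replicates 1 and 2, of 1 food, differed in 1518 genes and L4440 replicates 1 and 2 in 2159. The sides were not 2 clean sets over all genes. The library labelled bcat-1 day 2 replicate 3 differed from L4440 replicate 3, of the other side, with an SD of 0.615. From bcat-1 replicate 2 and L4440 replicate 2, of its own side, its SDs were 0.617 and 0.693.

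**Figure D1:**
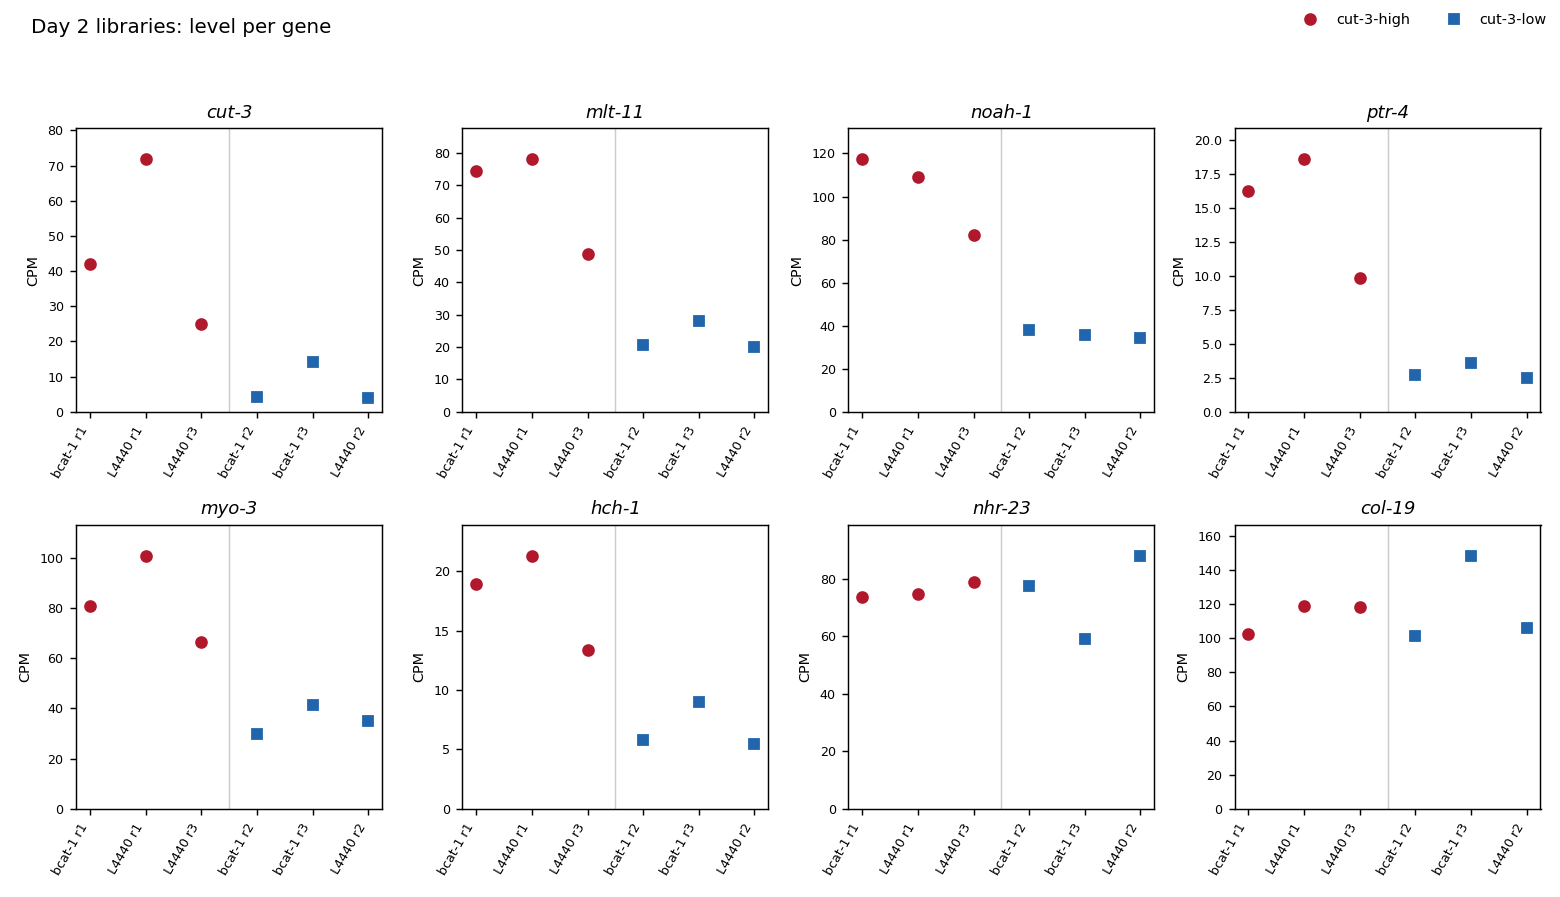
Level in CPM (y axis, from 0, own scale per gene) of 8 genes in each day 2 library (x axis; r is the replicate number), with cut-3-high libraries as red circles and cut-3-low libraries as blue squares. cut-3, mlt-11, noah-1, ptr-4, myo-3 and hch-1 lie higher in all 3 cut-3-high libraries, and nhr-23 and col-19 overlap.

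The largest differences among genes with a mean of at least 5 CPM were in ram-2, F33D4.6, cht-5, phat-5, col-107, cut-3, grl-16, ifp-1, col-65, Y47D7A.13, col-165 and C02E7.6. ram-2 stood at 12.8, 27.5 and 14.9 CPM in the cut-3-high libraries, against 0.956, 8.76 and 1.11 CPM in the cut-3-low libraries, a difference of 3.00 or 8.00-fold. The library labelled bcat-1 day 2 replicate 3 lay closest to the cut-3-high side, and the difference was 4.01 without it. The differences of the other 11 ran from 2.70 (C02E7.6) to 2.99 (F33D4.6). phat-5, of a family of pharyngeal gland proteins, stood at 8.30, 15.2 and 8.59 CPM in cut-3-high libraries and 0.645, 5.51 and 0.664 CPM in cut-3-low libraries. These values chose the division and are no evidence for it.

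Of 11 lipocalin and leucine-rich genes of the precuticle, all passed the filter, 8 were higher in all cut-3-high libraries and 0 lower, and the median difference was 1.39 (1.81 without the library labelled bcat-1 day 2 replicate 3). lpr-3, a lipocalin of the precuticle, stood at 43.2, 45.8 and 27.2 CPM in cut-3-high libraries, against 9.06, 16.6 and 8.00 CPM in cut-3-low libraries (3.53-fold). lpr-4 (2.31), lpr-5 (2.20) and lpr-6 (2.07) had larger log2 differences, and the leucine-rich gene let-4 a smaller one (1.05). The leucine-rich genes egg-6 (−0.10) and pan-1 (0.26), named after their values were seen, overlapped between the sides.

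Cuticulins and other ZP genes had 41 members, of which 35 passed the filter, 23 were higher without overlap and 0 lower (median 1.14, and 1.25 without that library). cut-2, a cuticulin gene, stood at 34.5, 58.6 and 24.3 CPM in cut-3-high libraries and 2.94, 24 and 4.08 CPM in cut-3-low libraries, so the library labelled bcat-1 day 2 replicate 3 lay just below the lowest cut-3-high library. Among ZP genes of the embryonic and larval cuticle, noah-1 stood at 118, 109 and 82.1 CPM in cut-3-high libraries, against 38.2, 35.6 and 34.2 CPM in cut-3-low libraries. noah-2 showed the same separation, at 91.2, 87.8 and 68 CPM in cut-3-high libraries and 33.6, 33.7 and 28.7 CPM in cut-3-low libraries. In noah-1 and noah-2 all 3 cut-3-low libraries lay close together, unlike in cut-2. The differences of cut-6, cutl-23 and cutl-28 were 2.35, 1.78 and 1.65.

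The collagens showed 2 patterns. Furrow collagens, which mark the annular furrows, had 6 members, of which 4 were higher without overlap and 0 lower (median 1.30, and 1.55 without the library labelled bcat-1 day 2 replicate 3). dpy-7 stood at 19.5, 22.3 and 13.9 CPM in cut-3-high libraries, against 4.71, 8.49 and 4.55 CPM in cut-3-low libraries. dpy-2 (1.70), dpy-3 (1.46) and dpy-10 (1.14) separated the sides likewise. The other 2, described after their values were seen, did not: dpy-8 stood at 0.343, 0.306 and 2.13 CPM in cut-3-high libraries and 0.311, 1.41 and 0.379 CPM in cut-3-low libraries, and dpy-9 differed by 0.18.

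Among 14 other named collagens 13 passed the filter, 3 were higher without overlap (23.1%, beside 17% of all genes) and 0 lower (median 0.82). Without that library 9 were higher (median 1.87), where 3875 of all 14708 genes were. The 3 were sqt-3, dpy-14 and dpy-17, collagens with embryonic expression in this worm. sqt-3 stood at 143, 175 and 95.7 CPM in cut-3-high libraries, against 27.6, 88.6 and 28 CPM in cut-3-low libraries, a difference of 1.71 (2.26 without the library labelled bcat-1 day 2 replicate 3). In this collagen that library lay just below L4440 replicate 3. dpy-17 stood at 137, 157 and 87.9 CPM in cut-3-high libraries and 32.5, 73.1 and 32.1 CPM in cut-3-low libraries. Others were high in 1 library of each side. rol-6, a cuticle collagen gene whose mutants roll, stood at 0.211, 0.0471 and 2.46 CPM in cut-3-high libraries and 0, 1.19 and 0.126 CPM in cut-3-low libraries. The 0 in bcat-1 replicate 2 allows up to 0.0717 CPM (3 counts), a limit of counting error only. L4440 replicate 3 and the library labelled bcat-1 day 2 replicate 3 were thus the high ones, both at low levels, and these are the 2 day 2 libraries with the largest rRNA shares, whose part was not tested. Further collagens, named after their values were seen, were high in the same 2 libraries. sqt-1 stood at 0.105, 0.0943 and 2.60 CPM in cut-3-high libraries and 0.0956, 1.78 and 0.0632 CPM in cut-3-low libraries. dpy-5 stood at 0.132, 0.141 and 2.96 CPM in cut-3-high libraries and 0.0239, 1.51 and 0.0948 CPM in cut-3-low libraries. Both sides held 1 high and 2 low libraries in each of these genes.

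**Figure D2:**
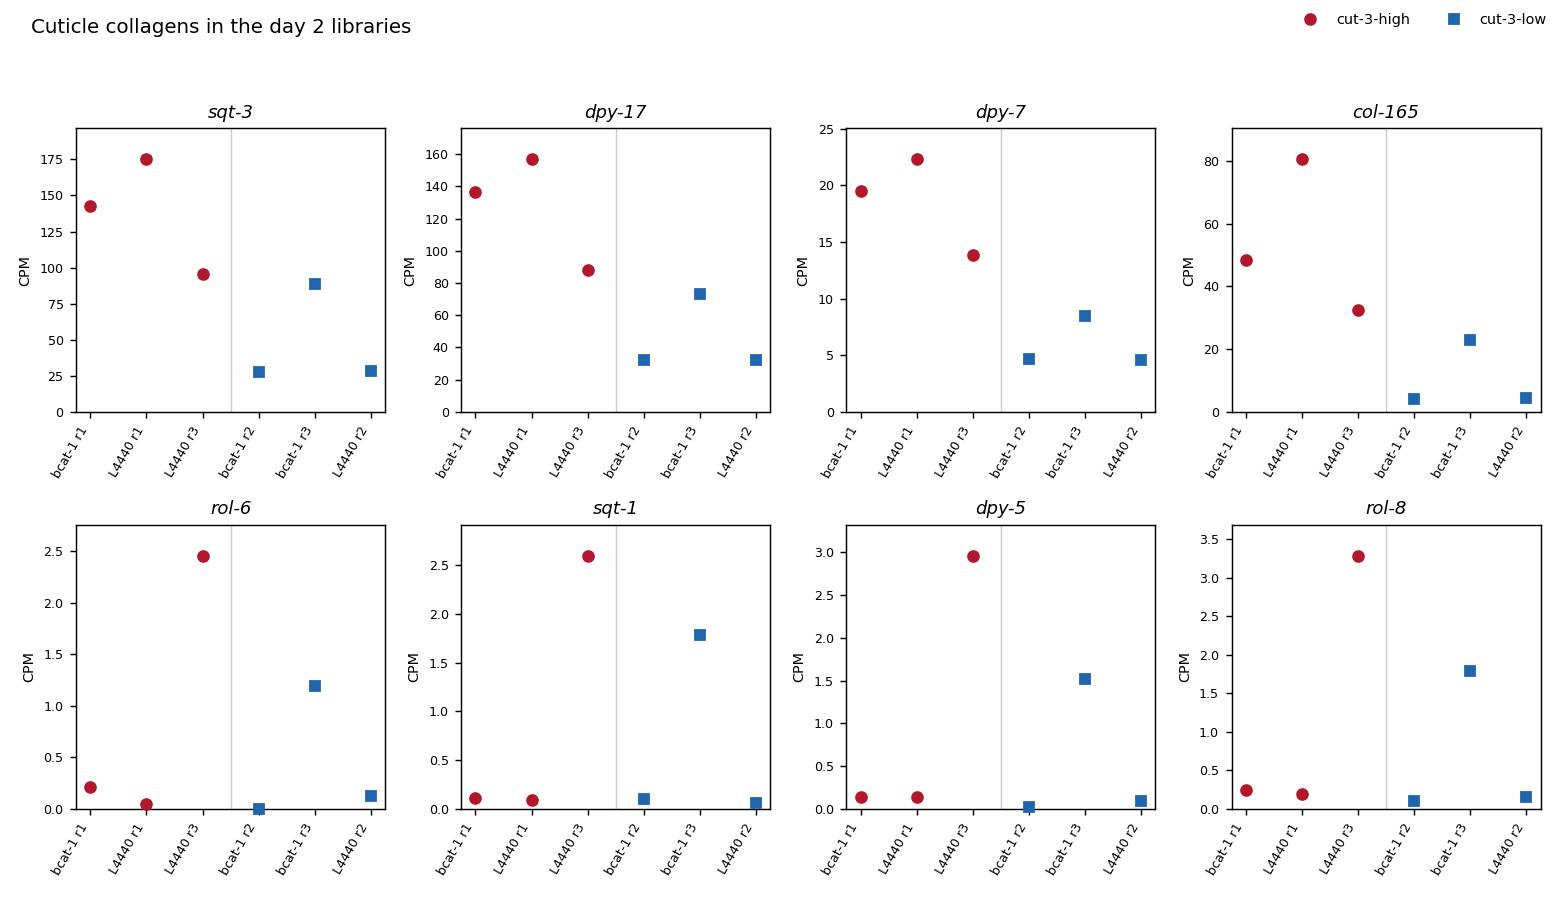
Level in CPM (y axis, from 0, own scale per gene) of 8 cuticle collagens in each day 2 library (x axis), with cut-3-high libraries as red circles and cut-3-low libraries as blue squares. sqt-3, dpy-17, dpy-7 and col-165 lie higher in all 3 cut-3-high libraries, whereas rol-6, sqt-1, dpy-5 and rol-8 are highest in L4440 replicate 3 and in the library labelled as bcat-1 replicate 3 of day 2.

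The col genes, the large family of cuticle collagens, had 156 members, of which 105 passed the filter, 19 were higher without overlap and 0 lower, a share of 18.1% beside 17% of all genes. Without the library labelled bcat-1 day 2 replicate 3, 49 were higher, where 3875 of all 14708 genes were, and the median was 0.72 in place of 0.39. The highest of the 6 libraries was L4440 replicate 1 in 39 of the 105, the library labelled bcat-1 day 2 replicate 3 in 39 (37.1%, against 29.5% of all genes tested) and L4440 replicate 3 in 18. col-165 stood at 48.5, 80.7 and 32.5 CPM in cut-3-high libraries, against 4.21, 22.9 and 4.27 CPM in cut-3-low libraries (6.70-fold), and col-14 (2.71), col-104 (2.98) and col-107 (2.81) also separated the sides. Collagens of the last larval stage and the adult did not: of 9 members 4 passed the filter and 0 were higher or lower without overlap (median −0.11, and 0.36 without that library). col-19, an adult collagen, differed by −0.05 with overlap. The library labelled bcat-1 day 2 replicate 3 was its highest, at 148 CPM, and bcat-1 replicate 2 its lowest, at 102 CPM, both on the cut-3-low side. bli-1, a collagen of the adult cuticle struts, differed by −0.16. Paralogous collagens can share reads, and how such reads were counted is not given in the sources used here.

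Of 27 moulting genes 26 passed the filter, 19 were higher without overlap and 0 lower (median 0.88, and 0.81 without the library labelled bcat-1 day 2 replicate 3). mlt-11, a protease inhibitor of the moult, stood at 74.4, 78.2 and 48.7 CPM in cut-3-high libraries, against 20.7, 28.1 and 19.9 CPM in cut-3-low libraries. mlt-10 had a smaller difference, at 28.5, 28.9 and 20.1 CPM in cut-3-high libraries and 14.5, 16.8 and 13.3 CPM in cut-3-low libraries. Log2 differences were 2.63 in mlt-9, 2.62 in bus-8B, a glycosyltransferase gene of the epidermis, and 2.04 in phg-1. nas-37, the astacin protease that sheds the larval cuticle, went with neither side. It stood at 8.75, 8.98 and 6.28 CPM in cut-3-high libraries and 9.39, 9.35 and 8.25 CPM in cut-3-low libraries, and the groups overlapped. Astacins as a list had 39 members, 30 past the filter, 11 higher without overlap (36.7%, beside 17% of all genes) and 0 lower (median 0.41, and 0.60 without that library). hch-1, the astacin of hatching, stood at 18.9, 21.3 and 13.4 CPM in cut-3-high libraries, against 5.81, 9.03 and 5.44 CPM in cut-3-low libraries (2.65-fold), and all cut-3-high libraries lay above all cut-3-low ones. A list of genes for collagen processing, shown as enzymes in the figures, also held the basement membrane collagen gene emb-9. Of its 10 members 5 were higher without overlap and 0 lower (median 0.27, and 0.30 without that library).

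Of 14 transcription factors of the moulting cycle 12 were higher without overlap and 0 lower, but the differences were small (median 0.68, and 0.56 without the library labelled bcat-1 day 2 replicate 3). nhr-25, a nuclear receptor of the epidermis and the moult, stood at 11, 11.9 and 8.81 CPM in cut-3-high libraries, against 6.65, 5.13 and 5.09 CPM in cut-3-low libraries. grh-1, the Grainyhead factor, differed by 1.61, blmp-1 by 1.29 and lin-42, the Period homologue, by 0.79. nhr-23, the nuclear receptor at the head of the cycle, stood at 73.7, 74.7 and 78.9 CPM in cut-3-high libraries and 77.5, 58.9 and 88 CPM in cut-3-low libraries. Its groups overlapped, and the difference was 0.04. Heterochronic genes, which time larval stages, had 3 of 8 higher without overlap and 0 lower (median 0.28, and 0.06 without that library). The early-acting hbl-1 stood at 107, 104.74 and 57.7 CPM in cut-3-high libraries, against 27.9, 26 and 26.6 CPM in cut-3-low libraries. lin-14, also early-acting, stood at 21.6, 30.8 and 12.7 CPM in cut-3-high libraries and 7.86, 3.62 and 7.05 CPM in cut-3-low libraries, whereas lin-28 differed by 0.16 with overlap.

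Hedgehog-related genes, which encode secreted proteins of the epidermis, had 59 members, of which 39 passed the filter, 20 were higher without overlap and 0 lower (median 1.34, and 1.66 without the library labelled bcat-1 day 2 replicate 3). wrt-2, a seam cell gene, stood at 9.01, 11.3 and 4.88 CPM in cut-3-high libraries, against 0.861, 1.73 and 0.885 CPM in cut-3-low libraries (6.89-fold). wrt-1 (2.45), grl-7 (2.58), grl-16 (2.78) and grl-5 (2.63) separated the sides too, and grd-3 (−0.23) and grd-5 (0.09) did not. Of 28 patched-related genes, whose proteins are related to the hedgehog receptor, 27 passed, 19 were higher without overlap and 0 lower (median 0.80, and 0.84 without that library). The lists share members, so their counts are not separate. For example, ptr-4 and ptr-18 are also in the moulting list, wrt-2 in the seam cell list, and nas-37 in the moulting and astacin lists. ptr-4, needed for moulting, stood at 16.3, 18.6 and 9.86 CPM in cut-3-high libraries, against 2.75, 3.62 and 2.50 CPM in cut-3-low libraries. The 3 cut-3-low values of ptr-4 lay close together.

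**Figure D3:**
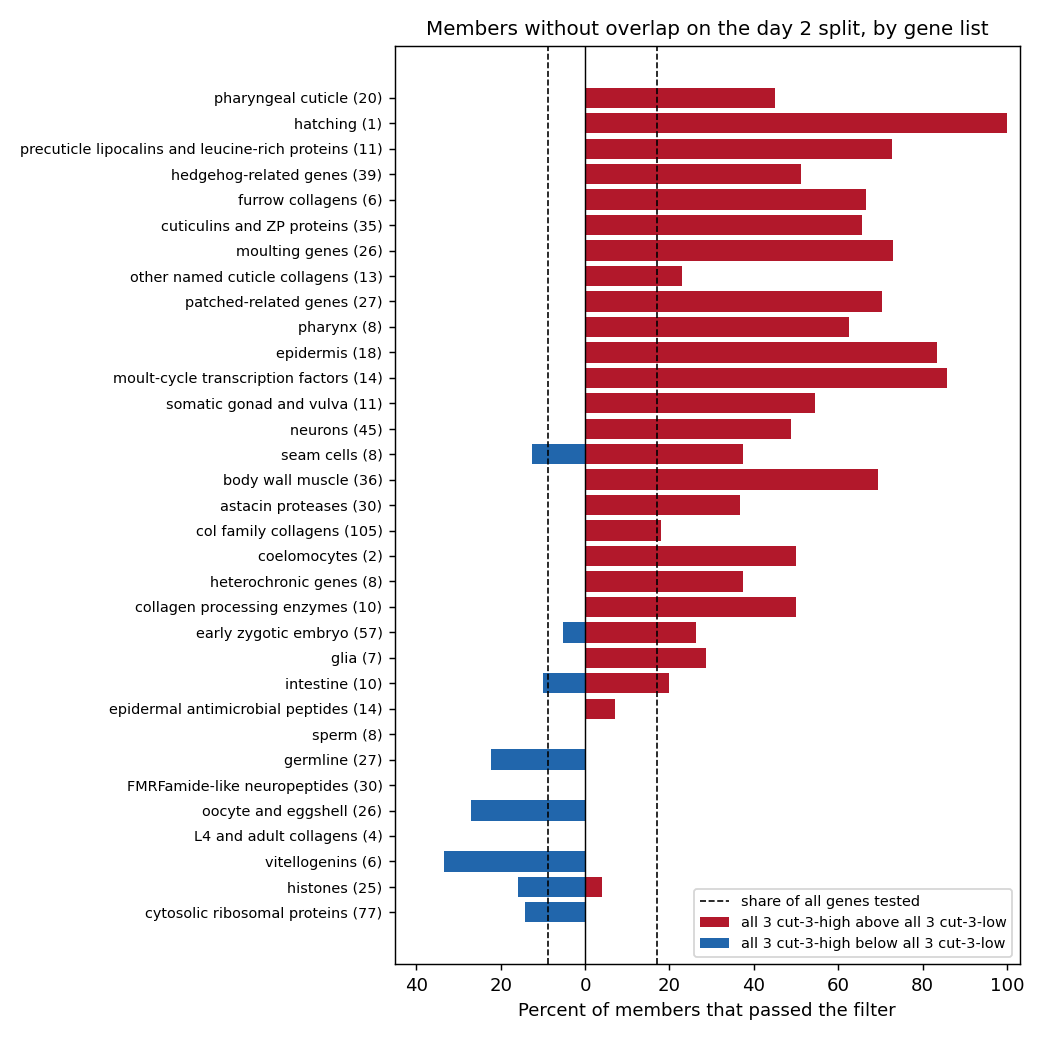
Share of each list's members that passed the filter (x axis, percent; number of such members in brackets) that lay higher in all 3 cut-3-high libraries (red, right of 0) or lower in all 3 (blue, left of 0), with dashed lines at the shares of all genes tested (17% and 8.83%). Lists are ordered by their median difference. In red lie 83.3% of the epidermis list and 69.4% of body wall muscle genes, and germline, oocyte, vitellogenin and ribosomal protein genes lie in blue only.

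Of 18 genes of the epidermis list 15 were higher without overlap and 0 lower (median 0.74, and 0.59 without the library labelled bcat-1 day 2 replicate 3). The 15 include the calreticulin gene crt-1, named after its values were seen and not particular to the epidermis, at a difference of 0.19. dlg-1, of the apical junction, stood at 109.9, 110.3 and 73.5 CPM in cut-3-high libraries, against 57.7, 48 and 53.9 CPM in cut-3-low libraries. The epidermal intermediate filament gene ifa-3 differed by 2.16, the cell fusion gene eff-1 by 1.16 and let-805, of the attachment of epidermis to muscle, by 0.93. lin-26, a factor of epidermal fate named after its values were seen, overlapped (−0.01). Seam cell genes had 3 of 8 higher (37.5%, beside 17% of all genes) and 1 lower without overlap (median 0.56, and 0.74 without that library, where 6 were higher). The genes of the pharyngeal cuticle had 31 members, 20 past the filter, 9 higher and 0 lower (median 1.46, and 1.52 without that library). abu-14 stood at 33, 53.2 and 24.2 CPM in cut-3-high libraries, against 3.66, 13.1 and 3.89 CPM in cut-3-low libraries. chs-2, the chitin synthase of the pharynx, differed by 0.94. abu genes resemble each other and can share reads.

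Muscle and neuron genes were also unequal between the sides. Of 36 body wall muscle genes 25 were higher without overlap and 0 lower (median 0.47, and 0.49 without the library labelled bcat-1 day 2 replicate 3). myo-3, a myosin heavy chain of body wall muscle, stood at 80.7, 101 and 66.4 CPM in cut-3-high libraries, against 29.7, 41.3 and 35 CPM in cut-3-low libraries (2.32-fold). The other body wall myosin, unc-54, differed by 0.34 without overlap. tni-1, a troponin I gene, differed by 1.43, and the attachment genes deb-1, pat-2 and unc-52 by 1.11, 1.11 and 0.99, while unc-27, another troponin I gene, overlapped (−0.02). Of 8 pharyngeal genes 5 were higher and 0 lower (median 0.74, and 0.89 without that library, where 8 were higher), with myo-2, a pharyngeal myosin, at 69.5, 91.3 and 65.8 CPM in cut-3-high libraries and 39.2, 59.8 and 39.2 CPM in cut-3-low libraries. Of 45 neuronal genes 22 were higher and 0 lower (median 0.59, and 0.78 without that library). slo-1, a potassium channel, stood at 9.04, 12.3 and 6.43 CPM in cut-3-high libraries, against 3.78, 3.57 and 2.97 CPM in cut-3-low libraries, and the neuronal identity factor unc-86 differed by 1.66. FMRFamide-like neuropeptide genes had 31 members, 30 past the filter and 0 higher or lower without overlap (median −0.06, and 0.16 without that library). In 27 of the 30 (90%, against 29.5% of all genes tested) the highest library was the one labelled bcat-1 day 2 replicate 3.

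The germline lists held no gene that was higher in all cut-3-high libraries. Among all genes tested 17% were higher and 8.83% lower without overlap. Of 27 germline genes 0 were higher and 6 lower without overlap (median −0.06). Without the library labelled bcat-1 day 2 replicate 3, 14 of the 27 were lower (median −0.15), where 2580 of all 14708 genes were. him-3, of meiotic chromosome axes, stood at 99.3, 101 and 117 CPM in cut-3-high libraries and 119.47, 139.7 and 121 CPM in cut-3-low libraries. Of 26 oocyte and eggshell genes 0 were higher and 7 lower (median −0.09, and −0.16 without that library). puf-7, an oocyte RNA-binding gene, stood at 33.2, 32.3 and 39.6 CPM in cut-3-high libraries and 46, 53.7 and 44.1 CPM in cut-3-low libraries. All cut-3-high values lay below all cut-3-low values in both genes, at small differences (−0.26 and −0.45). Sperm genes had 52 members, of which 8 passed the filter and 0 separated the sides. Genes of early zygotic transcription, which the embryo switches on first, had 66 members, of which 57 passed. Of these 15 (26.3%) were higher and 3 lower without overlap (median 0.23, and 0.31 without that library). tbx-38, an early embryonic T-box gene, stood at 9.80, 10.3 and 6.75 CPM in cut-3-high libraries, against 4.66, 2.70 and 4.81 CPM in cut-3-low libraries. end-1, an early endoderm factor, was low in all libraries, at 0.422, 0.212 and 0.361 CPM in cut-3-high libraries and 0.765, 0.432 and 0.537 CPM in cut-3-low libraries. The differences of tbx-38 (1.15) and end-1 (−0.71) thus had opposite signs. The summed level of the early zygotic list was 508, 495 and 375 CPM in cut-3-high libraries and 388, 329 and 334 CPM in cut-3-low libraries, and the part of embryos in the division was not tested.

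**Figure D4:**
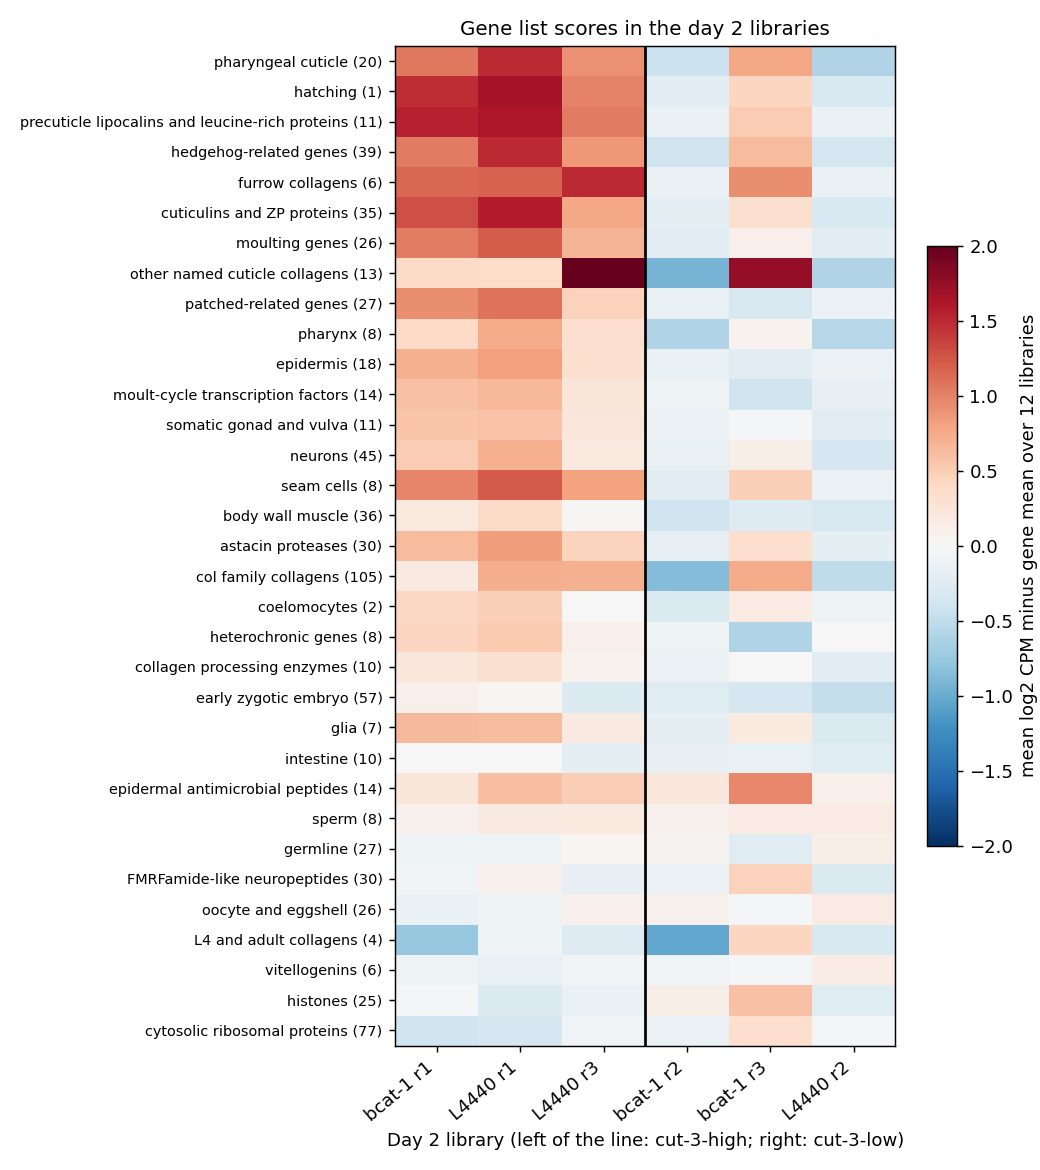
Colour gives a list's score in each day 2 library (x axis; cut-3-high libraries left of the black line), the mean over members of log2 CPM minus the gene's mean over the 12 libraries, with the number of members past the filter in brackets. Most cuticle lists are red in all 3 cut-3-high libraries, and the other named cuticle collagens are reddest in L4440 replicate 3 and in the library labelled as bcat-1 replicate 3 of day 2.

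The higher and the lower genes each peaked mostly in 1 library. By construction the highest library of a higher gene is a cut-3-high one, and that of a lower gene a cut-3-low one. Of the 2497 higher genes 1733 (69.4%) were highest in L4440 replicate 1. Among all genes tested 3537 were highest in that library, 2326 in bcat-1 replicate 1 and 964 in L4440 replicate 3. Among the 912 of at least 2-fold, 753 (82.6%) were highest in L4440 replicate 1, 144 in bcat-1 replicate 1 and 15 in L4440 replicate 3. On the cut-3-low side, 1157 of all genes tested were highest in bcat-1 replicate 2, 2385 in L4440 replicate 2 and 4339 in the library labelled bcat-1 replicate 3. Of the 1299 lower genes 956 (73.6%) were highest in the library labelled as bcat-1 replicate 3 of day 2. It holds the most rRNA counts and the fewest others, and its part in these genes was not tested. With a mean of at least 5 CPM the largest negative differences were in his-62, F09E10.1, B0511.11, T28A11.2, T20G5.8, F21C10.9, spp-17, F53H2.4, his-68, gst-24, sre-4 and WBGene00014904. spp-17, a saposin-like gene, stood at 131, 158 and 193 CPM in cut-3-high libraries, against 219, 442 and 215 CPM in cut-3-low libraries (−0.79, and −0.45 without that library). B0511.11 differed from these in order, at 3.06, 2.48 and 5.20 CPM in cut-3-high libraries and 6.17, 5.84 and 7.84 CPM in cut-3-low libraries, so that L4440 replicate 2 was highest. Histone genes had 72 members, 25 past the filter, 1 higher and 4 lower (median −0.31, and −0.02 without that library). Of 77 cytosolic ribosomal protein genes past the filter 0 were higher and 11 lower (median −0.34, and −0.20 without that library). The histone and ribosomal counts stand beside 17% higher and 8.83% lower among all genes tested. rps-19 stood at 722, 731 and 920.2 CPM in cut-3-high libraries, against 942, 1527 and 944 CPM in cut-3-low libraries. The library labelled bcat-1 day 2 replicate 3 was the highest in 73 of the 77 (94.8%, against 29.5% of all genes tested). The similar copies of histone genes can share reads.

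The 2497 higher genes and the 1299 lower genes, both without a fold limit, also differed in chromosome and length. Of the higher genes 27.1% lay on chromosome X, against 4.11% of the lower genes and 15% of all genes tested. Their median exon length was 1748 bases, against 987 in the lower genes and 1369 in all tested. Median levels over the day 2 libraries were 3.98 CPM in the higher genes, 39.3 CPM in the lower genes and 10.2 CPM in all, so the groups also differ in depth of counting.

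The day 1 libraries took no part in the choice of sides, and many of the genes also varied among them. Of the 912 genes 475 (52.1%) were highest in bcat-1 replicate 3 of the 6 day 1 libraries and 264 (28.9%) in L4440 replicate 3. Of all genes tested 17.5% were highest in that bcat-1 library and 17.6% in that L4440 library. The lower genes peaked elsewhere at day 1: 1000 of the 1299 (77%, against 27.6% of all genes tested) were highest in bcat-1 replicate 1. So were 73 of 77 ribosomal protein genes (94.8%) and 21 of 30 FMRFamide-like neuropeptide genes (70%). bcat-1 replicate 1 of day 1 held 0.202% rRNA counts. cut-3 stood at 0.641, 0.520 and 7.45 CPM on bcat-1 RNAi (replicates 1, 2 and 3) and at 0.608, 0.513 and 5.44 CPM on L4440 at day 1. ram-2 stood at 0.347, 0.428 and 5.19 CPM on bcat-1 RNAi and at 0.532, 0.420 and 5.21 CPM on L4440 at day 1. In both genes 1 library of each food stood above the other 2. The furrow collagen score at day 1 was −1.47, −0.59 and −0.10 on bcat-1 RNAi and −1.42, −0.70 and −0.19 on L4440, below the day 2 values of 1.14, 1.18 and 1.49 in cut-3-high libraries. Body wall muscle scores at day 1 were −0.08, 0.23 and 0.13 on bcat-1 RNAi and −0.01, 0.15 and −0.02 on L4440. Those libraries that stood high in cut-3 were thus not the highest for muscle. bcat-1 day 1 replicate 3 held 2.50% rRNA counts and L4440 day 1 replicate 3 0.967%, against 0.0724% to 0.767% in the other 4 day 1 libraries.

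**Figure D5:**
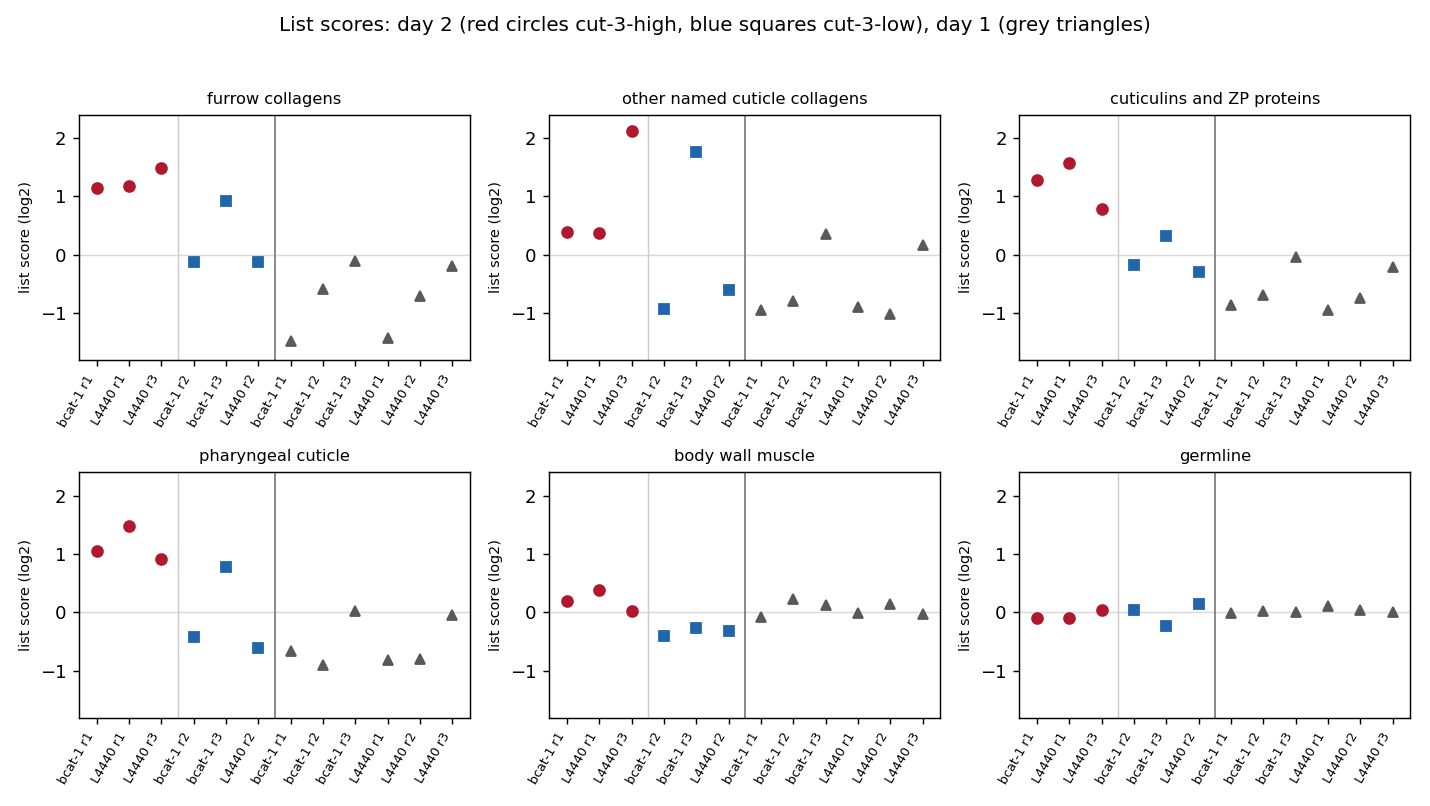
Score of 6 gene lists (y axis, log2) in every library (x axis), with day 2 left of the dark line (red circles cut-3-high, blue squares cut-3-low) and day 1 right of it (grey triangles). Collagen and cuticulin scores at day 1 are highest in replicate 3 of both foods, and germline scores stay between −0.24 and 0.14 in all 12 libraries.

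The labelled groups were compared by food and by age, with a test. edgeR's quasi-likelihood test on all 12 libraries gave 29 calls (0.197%) for higher and 30 (0.204%) for lower levels at day 2 on bcat-1 RNAi relative to L4440 (Benjamini-Hochberg adjusted p under 0.05). Of the 59 genes 0 were in any of the 33 lists, and without the library labelled bcat-1 day 2 replicate 3 the count was 49, among them 2 col genes that fell. By construction, genes that separate the cut-3 sides cannot separate the foods, since each side holds both. With the side added to the model 45 genes were called, of which 43 were among the 59. Leaving out single libraries reduced the 59 calls to 16 (bcat-1 replicate 2 of day 2), 26 (L4440 replicate 2 of day 2), 28 (L4440 replicate 3 of day 2), 34 (bcat-1 replicate 2 of day 1) and 38 (L4440 replicate 1 or 2 of day 1). At day 1 edgeR called 0 genes (0% in each direction), with 290 at an unadjusted p under 0.05, whereas DESeq2 called 16 and limma-voom 0. At day 2 mlt-11 had a log2 fold change of −0.25 (SE 0.61, edgeR adjusted p = 0.919) between bcat-1 RNAi and L4440, and myo-3 −0.41 (SE 0.38, adjusted p = 0.803).

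Between the ages, edgeR called 293 genes higher (1.99%) and 286 lower (1.94%) at day 2 than at day 1 on bcat-1 RNAi, and 132 higher (0.897%) and 174 lower (1.18%) on L4440. The furrow collagens had a median log2 fold change of 1.93 on bcat-1 RNAi and 2.12 on L4440, but 0 of 6 passed on either food. dpy-7 was at 2.32 (SE 0.74, edgeR adjusted p = 0.117) on bcat-1 RNAi and 2.69 (SE 0.74, adjusted p = 0.0837) on L4440. The spread of these genes among libraries of 1 group was large, as the values of each library show. Collagens that overlapped on the division did pass. col-19 fell by 1.28 on bcat-1 RNAi (SE 0.17, edgeR adjusted p = 0.00177) and by 1.13 on L4440 (SE 0.17, adjusted p = 0.00678). At day 1 col-19 stood at 242, 329 and 285 CPM on bcat-1 RNAi and at 213, 292 and 244 CPM on L4440, above all day 2 libraries. Of 105 col genes 25 fell and 0 rose on bcat-1 RNAi, and 11 fell and 2 rose on L4440. Of 36 body wall muscle genes 7 fell on bcat-1 RNAi and 4 on L4440, and 0 rose on either. Early zygotic genes had 8 falls and 0 rises of 57 on bcat-1 RNAi, and 9 falls and 1 rise on L4440. Antimicrobial peptide genes of the epidermis had 3 rises of 14 on bcat-1 RNAi and 5 on L4440, with cnc-4 at log2 2.67 (SE 0.39, edgeR adjusted p = 0.00291) and 1.75 (SE 0.37, adjusted p = 0.0357). The comparisons share libraries with each other, and whether the foods differ in their age effects was not tested. Leaving out bcat-1 replicate 1, 2 or 3 of day 1 brought the 579 calls on bcat-1 RNAi to 339, 230 and 254, and leaving out the library labelled bcat-1 day 2 replicate 3 to 635, where 34 col genes, 6 muscle genes and 8 early zygotic genes fell and 2 early zygotic genes rose. For the 306 calls on L4440, the counts were 124, 83 and 117 when an L4440 library of day 1 was dropped (replicates 1, 2 and 3) and 183, 1253 and 128 when one of day 2 was. Dropping bcat-1 replicate 1 or 3 of day 2, which are in neither group of that comparison, gave 746 and 530. Filter, scaling and spread were all estimated anew there.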

How the data were processed

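RNA of whole worms was sequenced from 12 libraries in 4 groups of 3. The authors deposited raw read counts per gene. Per the submitters' processing notes, bcl2fastq 1.8.4, STAR 2.4.1d and featureCounts 1.4.6-p4 were used with the build WBcel235. The annotation release, strand setting and treatment of multi-mapping reads are not given in the sources used here. The deposited RPKM table was not used, and promoter motifs were not analysed here.

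From the counts, 22 rRNA genes were removed, and 14708 of 46748 genes passed edgeR's filterByExpr. Symbols and gene positions were taken from Ensembl's annotation, release 115. CPM used TMM factors, and log2 CPM a prior count of 2. Totals were 29291731 to 43855795 counts per library. Wilson intervals (95%) and limits from 3 counts cover counting error only.

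The sides of day 2 were chosen by cuticle transcripts seen in these data, and library titles only identify the libraries of each side. The members and gene lists were chosen with earlier results of these data known. Differences between the sides carry no test. Labelled groups were compared with edgeR 4.0.16 (R 4.3.3) by its quasi-likelihood test over all genes, with 4 group means over 12 libraries, 8 residual degrees of freedom and Benjamini-Hochberg adjustment at 0.05. The common dispersion was 0.0399. DESeq2 1.42.0, limma 3.58.1 (voom), other scalings and filters, and leaving out each library were the alternatives. Tests were checked on simulated data. Replicate numbers follow accession order and were not used to pair libraries.

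Genes were named by rule. For the division these were the 12 largest differences in each direction without overlap and with a mean of at least 5 CPM. To them came up to 5 members of each list with a mean of at least 2 CPM, up to 4 called members per list and comparison, and a set of marker genes always named. Genes named otherwise are said to be so. The symbol bus-8 was read as bus-8A and bus-8B, and lin-4, let-7, trp-3, ssp-11 and nas-35 were dropped for want of a match in the annotation.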

Additional observations from a re-analysis of the deposited data

Results flagged for a closer look

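The library labelled bcat-1 day 2 replicate 3 held 41.5% of its counts in rRNA genes, which were removed before every comparison (95% Wilson interval 41.4% to 41.5%, counting error only). The L4440 libraries of day 2 held 0.0770%, 0.114% and 6.74%. The same library held bcat-1 at 348 CPM, against 124 to 164 CPM in the L4440 libraries of day 2. The part of either value in the division was not tested.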

How the results depend on the processing

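No paired analysis was possible because the labels give no replicate numbers, and those used here follow accession order, which does not establish pairs, so no block was fitted. At day 2 the libraries of the 2 foods numbered 1 and those numbered 2 had the smallest SDs of log2 differences (0.321 and 0.393), and those numbered 3 had 0.615. The food tests take no account of this. The 912 genes higher at least 2-fold in cut-3-high libraries became 595 under the stricter filter and 1660 at 1.5-fold, and 633 to 1349 when each day 2 library was left out. The 19 lower genes became 36 with no filter, 7 under the stricter filter and 92 at 1.5-fold, and 11 to 159 with a library left out. Without a fold limit, leaving out a library gave 1909 to 3958 higher genes and 1848 to 4008 lower genes. These counts come from a new filter and scaling without that library, so they differ from counts that keep those of all 12 libraries (3958 and 2606 in place of 3875 and 2580 without the library labelled bcat-1 day 2 replicate 3). DESeq2 called 193 genes between the foods at day 2, 16 at day 1, 1002 between the ages on L4440 and 999 on bcat-1 RNAi. With no filter, 7 genes were called at day 1 and 823 between the ages on L4440. The division as an added factor gave 1 call at day 1. Leaving out each library gave 16 to 83 calls for the foods at day 2, 0 to 3 at day 1, 83 to 1253 for the ages on L4440 and 230 to 716 on bcat-1 RNAi. Across alternatives 344 of the list medians moved by less than the spread within the sides and 19 by more, as did 2079 and 55 of the gene differences. That spread includes the library left out. A turn of sign was looked for only where the sides did not overlap, in 19 of 33 lists and 125 of 194 named genes, and none was found. Other list medians did change sign without the library labelled bcat-1 day 2 replicate 3, such as FMRFamide-like neuropeptides (−0.06 and 0.16) and collagens of the last larval stage and the adult (−0.11 and 0.36). With a library left out, fewer libraries have to be free of overlap, so by construction more genes can count. A lower fold limit likewise admits more genes. Other causes of the changes in counts and differences were not tested. Counts below about 1 CPM, as in rol-6, limit the low collagens.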

Other observations

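Lists of other tissues are set here beside all genes tested, of which 17% were higher and 8.83% lower without overlap between the cut-3 sides (median log2 difference 0.07). Without the library labelled as bcat-1 replicate 3 of day 2, 3875 of the 14708 genes were higher and 2580 lower (median 0.03). Of 11 genes of the somatic gonad and vulva 6 were higher in all cut-3-high libraries and 0 lower (median 0.63, and 0.75 without the library labelled as bcat-1 replicate 3 of day 2). Of 7 glial genes past the filter 2 were higher and 0 lower (median 0.18), and without that library 4 were higher (median 0.49). Of 2 coelomocyte genes 1 was higher and 0 lower (median 0.38, and 0.50 without that library). Of 10 intestinal genes 2 were higher (20%) and 1 lower, near the shares of all genes (median 0.16, and 0.14 without that library). Of 6 vitellogenin genes, which encode yolk proteins made in the intestine, 0 were higher and 2 lower (median −0.11, and −0.15 without that library). Of 14 antimicrobial peptide genes of the epidermis 1 was higher and 0 lower (median −0.01), and without that library 5 were higher (median 0.27). That library was the highest in 11 of the 14 (78.6%), against 29.5% of all genes tested.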
